A study of Mus musculus with 30 samples.

Results

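Lgr5-positive cells and Sox2-high cells of the mouse antrum, the distal part of the stomach, were compared by RNA-seq. The members are 6 of the 30 libraries of the study: the 3 antrum libraries of Lgr5-positive cells from Lgr5-DTR-GFP mice and the 3 antrum libraries of Sox2-high cells from Sox2-Tomato mice. The rule uses labels and no measured value. Because each sort came from its own reporter line and its own days, the differences were set beside those between the negative cells of the same lines, from 3 Lgr5-negative and 3 Sox2-negative antrum libraries. In the Lgr5-DTR-GFP line, green fluorescent protein and the diphtheria toxin receptor report Lgr5, and in the Sox2-Tomato line a red fluorescent protein reports Sox2. The genotype field of all 12 libraries reads WT beside these reporter names, so no other allele or treatment is named. The labels give no age, number of pooled animals, promoter construct or gate position.

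As background, antral glands are renewed from stem cells, and Lgr5, a receptor for R-spondins that strengthens Wnt signals, marks cells at the gland base, among mucous cells that make the gland mucin Muc6. Sox2 is a transcription factor of the stomach and other foregut epithelia. Endocrine cells are scattered through the same glands. Among them, G cells make gastrin, D cells make somatostatin, and enterochromaffin cells make serotonin, whose synthesis outside the brain is limited by the enzyme Tph1.

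Values are normalized counts, which the authors made by dividing gene counts by a size factor for each library. The 12 libraries held 18602964 to 34372254 reads in named genes, and a gene without a read can still have up to 3 reads' worth of RNA by counting error alone. The Sox2-high libraries came from 1630 to 3268 sorted cells and the Lgr5-positive ones from 12000 to 18110, so number of cells and group cannot be told apart. Libraries are numbered by sort day within a line. Both libraries numbered 1 stand apart: features without a gene name took 0.324% of reads in Lgr5-positive 1 and 0.482% in Sox2-high 1, against 0.0854% to 0.109% in the other 4, and Pgc alone took 18.6% of the reads of Lgr5-positive 1. The main counts are therefore also given without day 1. The labels do not say whether each sort had its own animals, and the p-values therefore cover the variation among these sorts, which may be technical.

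Differences are Lgr5-positive minus Sox2-high means of log2(normalized count + 1), so a positive value is higher in Lgr5-positive cells, with the SE and the adjusted p of a limma fit to all 15642 genes tested. The gap between contrasts is that difference minus the one between Lgr5-negative and Sox2-negative cells, tested in the same fit. The replicate block is the fit with the library number as a term. It was chosen after seeing the data, and same-numbered libraries of different lines share no day. With it, 3727 genes passed between the positive groups, against 1597 without it. The sort-day block treats libraries of 1 line and day as related. With that block the gap passed in 805 genes, against 147 without it. A blocked p is given where it changes a call, from both blocks for the difference between the positive groups and from the sort-day block for the gap.

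The sort genes and cell markers were examined first. Lgr5 stood at 5727, 4186 and 2767 in Lgr5-positive libraries 1, 2 and 3, at 396, 807 and 951 in the Sox2-high libraries, at 66.3, 196 and 321 in the Lgr5-negative and at 223, 689 and 281 in the Sox2-negative libraries. All 3 Lgr5-positive libraries lay above the other 9 (log2 difference 2.59, SE 0.60, adjusted p = 0.0189, or 0.0515 with the sort-day block). Its gap between contrasts was 3.71 (adjusted p = 0.0765, or 0.00821 with the sort-day block). Sox2 stood at 1355, 3628 and 2849 in the Sox2-high libraries and at 874, 800.4 and 722 in the Lgr5-positive ones. The groups did not overlap, but the difference did not pass the test (log2 difference -1.60, SE 0.73, adjusted p = 0.223, 95% interval -3.20 to 0.0079). It passed with voom (adjusted p = 0.00751), without Sox2-negative library 1 (adjusted p = 0.0163) and without day 1 (log2 difference -2.08, adjusted p = 0.00414). Sox2 transcript was thus present in every Lgr5-positive library, and it was 651, 745 and 569 in the Lgr5-negative libraries and 36.6, 442 and 304 in the Sox2-negative ones. The difference between the negative groups had the opposite sign (log2 difference 1.92), and the gap between the contrasts was -3.52 (adjusted p = 0.191, or 0.00741 with the sort-day block). Both genes were gated on, so their levels describe the sort. The call of Lgr5 ended without any 1 of Lgr5-positive 1 and Sox2-high 1 and 2 (adjusted p up to 0.0606).

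Muc6, the mucin of deep antral glands, stood at 253568, 95524 and 262120.4 in the Lgr5-positive libraries and at 34053, 15325 and 17507 in the Sox2-high libraries (log2 difference 3.15, SE 0.61, adjusted p = 0.00731). The groups did not overlap, and the difference between the negative groups was -0.51 on the log2 scale. Its gap between contrasts was 3.65 (adjusted p = 0.0849, or 0.00259 with the sort-day block). Tph1 ran the opposite way. It stood at 163893, 396413 and 304056 in the Sox2-high libraries and at 1474, 2773 and 1648 in the Lgr5-positive ones (log2 difference -7.16, SE 0.69, adjusted p = 0.000179). The difference between the negative groups had the opposite sign, with 3449, 4620.2 and 2826 in the Lgr5-negative and 105, 1079.7 and 589 in the Sox2-negative libraries (log2 difference 3.13), and the gap between the contrasts was -10.29 (adjusted p = 0.000671). In bulk libraries, fewer cells of a type and less RNA per cell cannot be told apart, here and below. The two-sided exact permutation test of 3 against 3 libraries gave p = 0.1 for each of Lgr5, Sox2, Muc6 and Tph1, the smallest p it allows.

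**Figure D1:**
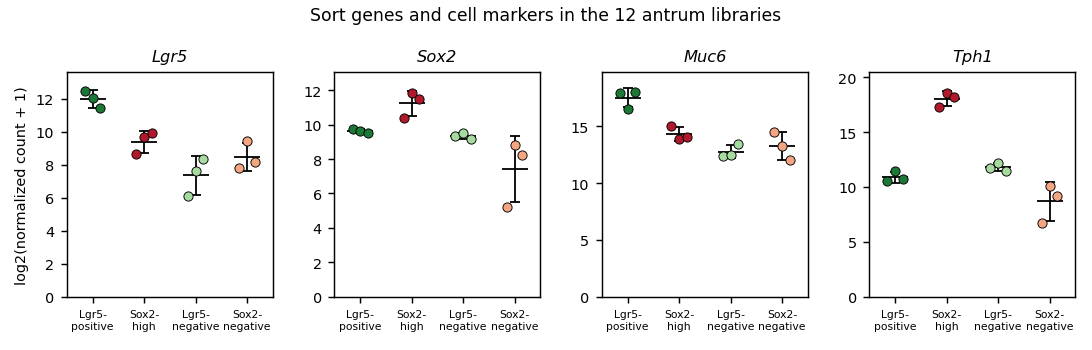
Normalized counts of the sort genes Lgr5 and Sox2 and of the markers Muc6 and Tph1, as log2(normalized count + 1), in the 12 libraries (points, sort days 1 to 3 from left to right), with the mean and SD of each group of 3. Tph1 lies highest in the 3 Sox2-high libraries and Muc6 in the 3 Lgr5-positive ones, while Sox2 is present in all 4 groups.

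Across the transcriptome, more genes were higher in Sox2-high than in Lgr5-positive cells. Of 15642 genes tested with limma on log2(normalized count + 1) at a Benjamini-Hochberg adjusted p under 0.05, 1597 (10.2%) passed: 1223 (7.82%) were higher in Sox2-high and 374 (2.39%) were higher in Lgr5-positive cells. Of the 1597, 1562 differed over 2-fold and 1592 had groups that did not overlap, against 3760 (24%) of all genes tested. Passing the test favours groups that do not overlap, so the 1592 are no separate support. The higher share in Lgr5-positive libraries depended on the tool: it was 23.4% of the calls here, 36.7% of 2477 with DESeq2 and 46.8% of 3001 with voom. With the replicate number as a block, 3727 (23.8%) passed, 1479 of them higher in Lgr5-positive cells. Without sort day 1 of both lines 3026 passed, 728 without Sox2-high library 2, 1025 without Sox2-high library 3 and 994 without Lgr5-positive library 3.

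The negative cells gave the yardstick for the lines and days. They were gated on different reporters, so they can also differ in make-up, and the gap between contrasts holds that difference too. In Sox2-negative library 1, Gast alone took 19.5% of reads and the 10 highest genes 27.6%. Between the negative groups, 0 genes (0%) passed with limma, 1363 had an unadjusted p under 0.05, edgeR called 0, DESeq2 322, voom 804 and the fit with the replicate block 21. Differences of over 2-fold were found in 4646 genes (29.7%) between the positive groups and in 2951 (18.9%) between the negative groups. Over 8-fold, the numbers were 1077 (6.89%) and 144 (0.921%). The difference was larger in size between the positive than between the negative groups for 1577 of the 1597 genes that passed, against 63.8% of all genes tested. The 1597 were picked by the difference between the positive groups, so the 1577 are no separate support. The sign was the same in both contrasts for 1287 of the 1597. In 386 of these the difference between the negative groups was at least 0.5 times as large. Line, sort day and sorted cell cannot be told apart from the positive contrast alone. The gap between the contrasts passed in 147 genes (0.94%), or in 805 (5.15%) with the sort day as a block. Without Sox2-high library 2 the count was 68, without Lgr5-negative libraries 1, 2 and 3 it was 90, 81 and 85, without Sox2-negative library 2 it was 87, and without day 1 it was 92.

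**Figure D2:**
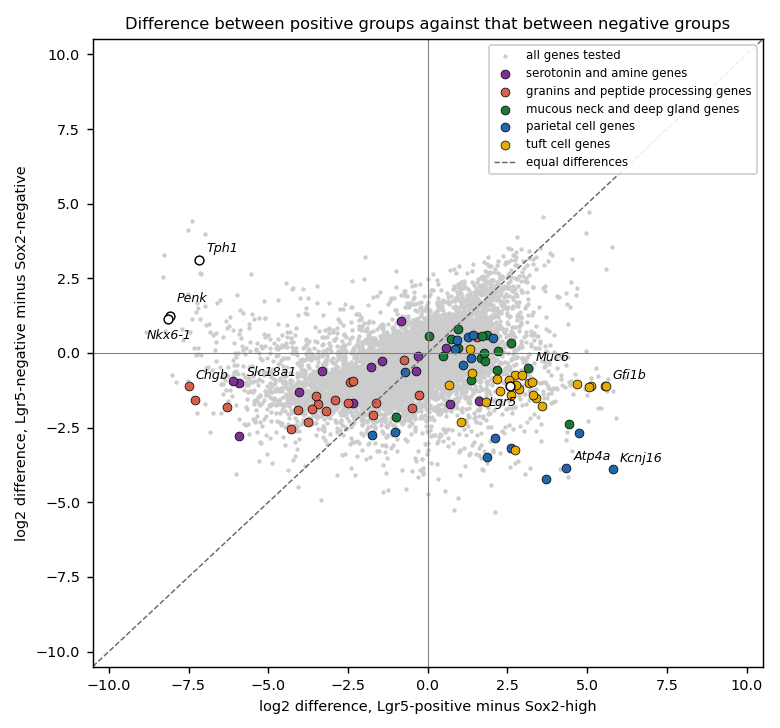
Each point is 1 of 15642 genes, placed by its log2 difference between Lgr5-positive and Sox2-high cells (horizontal) and between the negative cells of the same lines (vertical), with members of 5 gene lists in colour and 4 genes as open circles; on the dashed line the differences are equal. Granins lie left of 0 and below it, near the line for several, while Tph1, Penk and Nkx6-1 lie far left and above 0, and parietal and tuft cell genes lie mostly to the right and below 0.

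The genes of serotonin making and storage were high in Sox2-high cells. Of 14 tested serotonin and amine genes other than Tph1, 8 were higher in Sox2-high and 0 in Lgr5-positive cells, beside 7.82% and 2.39% of all genes tested. The median log2 difference was -1.61, against -0.02 over all genes tested. Slc18a1, a transporter that loads amines into secretory vesicles, stood at 6044, 8496 and 6437 in Sox2-high and at 114, 150.2 and 87.1 in Lgr5-positive libraries (log2 difference -5.91, SE 0.33, adjusted p = 3.6e-06). Its relative Slc18a2 stood at 2456, 9027 and 6532 against 75.0, 82.1 and 68.6 (log2 difference -6.11, SE 0.47, adjusted p = 3.94e-05). Ddc, the decarboxylase of the second step of serotonin synthesis, stood at 20231, 20574 and 15550.4 against 929, 1592 and 975 (log2 difference -4.04, SE 0.38, adjusted p = 0.000126). None of these groups overlapped. Gch1, which starts the synthesis of the tetrahydrobiopterin cofactor of Tph1, averaged 17074 ± 1082 (SD, n = 3) in Sox2-high and 1741 ± 346 in Lgr5-positive cells (log2 difference -3.31, SE 0.28, adjusted p = 6.38e-05). Qdpr, which recycles that cofactor, was higher in Sox2-high cells by a smaller step (log2 difference -1.43, SE 0.33, adjusted p = 0.0177, with -0.25 between the negative groups). Hdc, the enzyme that makes histamine, averaged 3848 in Sox2-high and 47.8 in Lgr5-positive cells (log2 difference -5.91, SE 0.87, adjusted p = 0.00183), but it was also 1612 in Sox2-negative against 193 in Lgr5-negative cells. Spr, a further cofactor enzyme, had a log2 difference of 0.56, SE 0.33, adjusted p = 0.361, or 0.0477 with the replicate block. The serotonin uptake transporter Slc6a4 was near the floor, at 14.2, 0.682 and 0 in Sox2-high and 0, 10.01 and 8.88 in Lgr5-positive libraries. The call of Qdpr ended without any 1 of Lgr5-positive 2 and 3 and Sox2-high 2 (adjusted p up to 0.0689).

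For this list the gap between contrasts passed in 4 of 14 genes (6 with the sort-day block): Slc18a1 (-4.90, adjusted p = 0.000671), Slc18a2 (-5.18, adjusted p = 0.00393), Ddc (-2.75, adjusted p = 0.0364) and Gch1 (-2.70, adjusted p = 0.00723). Hdc did not pass it (-3.13, adjusted p = 0.442). Over all genes tested the gap passed in 0.94%, or in 5.15% with the sort-day block.

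Peptide genes split by kind. Of 14 tested peptide hormone genes, 4 were higher in Sox2-high cells and 0 in Lgr5-positive cells, beside 7.82% and 2.39% of all genes tested. The list's median log2 difference was -1.04 between the positive and -1.49 between the negative groups, and 7 of the 14 differed more in size between the positive groups. The gap between contrasts passed in 1 gene, Penk (-9.33, adjusted p = 2.59e-05), or in 4 with the sort-day block, 1 of them towards Lgr5-positive cells. Penk, the precursor of enkephalins, stood at 74995, 49597 and 30195 in the Sox2-high libraries and at 178, 252 and 120.2 in the Lgr5-positive ones (log2 difference -8.09, SE 0.41, adjusted p = 2.67e-06). All 3 Sox2-high libraries lay above the other 9, since Penk stood at 401, 425 and 302 in Lgr5-negative and at 217, 181 and 98.3 in Sox2-negative libraries. Tac1, the precursor of substance P, averaged 2760.2 ± 3399 against 34.3 ± 42.5 (log2 difference -6.25, SE 1.04, adjusted p = 0.00334, with -0.78 between the negative groups). Sct, which encodes secretin, averaged 2412 ± 1973 against 119.6 ± 114 (log2 difference -4.48, SE 0.84, adjusted p = 0.00617, with -1.10 between the negative groups), and Pomc 89.9 ± 33.1 against 8.87 ± 2.09 (log2 difference -3.17, SE 0.67, adjusted p = 0.0109, with -1.10 between the negative groups). The hormones of G and D cells did not follow. Gast, which encodes gastrin, stood at 520816, 533135 and 473718 in Sox2-high and at 1482468, 466078 and 171009 in Lgr5-positive libraries (log2 difference -0.052, SE 0.86, adjusted p = 0.985, with -2.27 between the negative groups, 95% interval -1.94 to 1.84). The groups overlapped. It was 5094825, 442815 and 1434596 in the Sox2-negative libraries. Sst, which encodes somatostatin, had a log2 difference of -0.88, SE 0.66, adjusted p = 0.509 (95% interval -2.33 to 0.58), and Ghrl, which encodes ghrelin, a log2 difference of -2.05, SE 0.80, adjusted p = 0.144, or 0.0156 with the replicate block.

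Endocrine transcription factors were higher in Sox2-high cells in 18 of 29 tested members and higher in Lgr5-positive cells in 0, beside 7.82% and 2.39% of all genes tested. The median log2 difference was -2.25. Nkx6-1 stood at 8281, 6681 and 5629 in Sox2-high and at 18.3, 23.4 and 29.0 in Lgr5-positive libraries (log2 difference -8.13, SE 0.35, adjusted p = 5.32e-07), and averaged 35.4 in Sox2-negative and 79.9 in Lgr5-negative cells. Lmx1a, known in the mouse gut as a factor that serotonin cells need for Tph1, stood at 988, 1785 and 1784 against 0, 11.3 and 1.61 (log2 difference -8.85, SE 0.80, adjusted p = 0.000105). In both genes the groups did not overlap, and the differences between the negative groups were 1.12 and 0.71, of the opposite sign. The gap between contrasts passed with limma in 3 of 29 members, among them Nkx6-1 (adjusted p = 6.35e-06) and Lmx1a (adjusted p = 0.00286), while 11 passed with the sort-day block, 1 of them in the other direction. Over all genes tested these shares were 0.94% and 5.15%.

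For broader endocrine factors the differences between the negative groups had the same sign. Insm1 averaged 8713 ± 4028 in Sox2-high and 422 ± 314 in Lgr5-positive cells (log2 difference -4.49, SE 0.53, adjusted p = 0.000598), and the difference between the negative groups was -0.93. Fev, a factor of serotonin neurons and endocrine cells, averaged 5701 ± 2331 against 191 ± 91.8 (log2 difference -4.95, SE 0.59, adjusted p = 0.000641), with -1.78 between the negative groups. Neurod1 (log2 difference -3.34, SE 0.48, adjusted p = 0.00151) and Pax6 (log2 difference -3.78, SE 0.45, adjusted p = 0.000641) had -1.44 and -1.62 there. Neurog3, which starts the endocrine lineage, stood at 156, 233 and 96.3 in Sox2-high, 52.7, 68.1 and 50.8 in Lgr5-positive, 417, 265 and 239.6 in Lgr5-negative and 80.1, 219 and 239 in Sox2-negative libraries, and its difference did not pass without the block (log2 difference -1.41, SE 0.49, adjusted p = 0.097, or 0.0458 with the replicate block). Foxa2, a pioneer factor of gut epithelium, was higher in Sox2-high cells (log2 difference -1.36, SE 0.24, adjusted p = 0.00406, with -0.13 between the negative groups), whereas its relative Foxa1 had a log2 difference of 0.23, SE 0.48, adjusted p = 0.859 and the antral factor Nkx6-3 a log2 difference of 0.24, SE 0.32, adjusted p = 0.747.

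**Figure D3:**
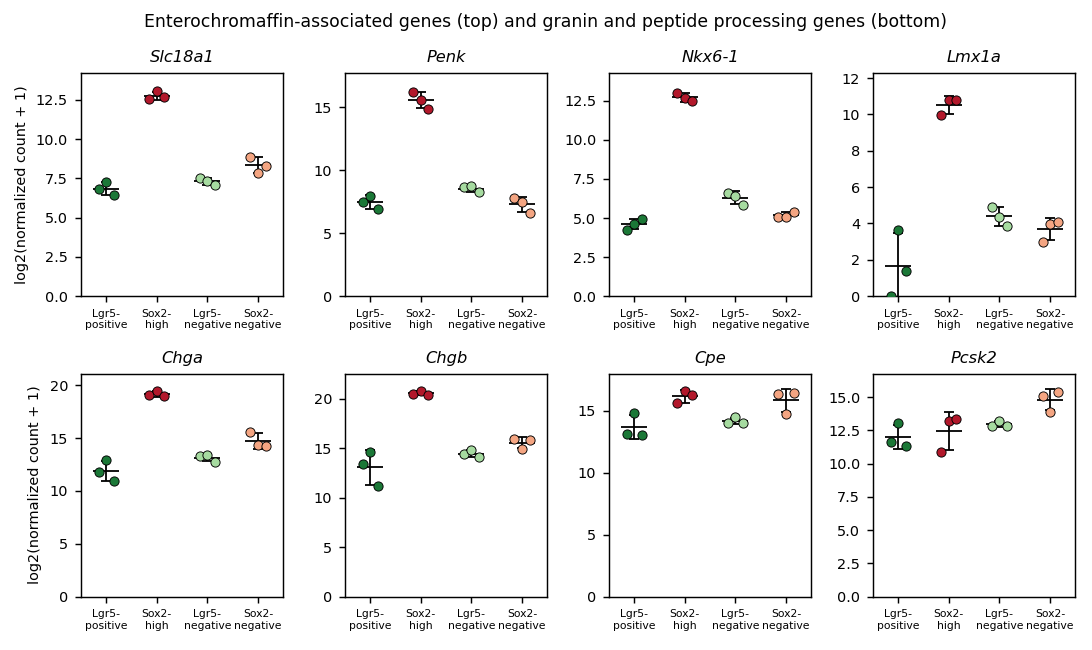
log2(normalized count + 1) of 4 genes associated with enterochromaffin cells (top) and 4 granin and peptide processing genes (bottom) in the 12 libraries (points, sort days 1 to 3), with group mean and SD (n = 3). Slc18a1, Penk, Nkx6-1 and Lmx1a are highest in the Sox2-high libraries, while Cpe overlaps between Sox2-negative and Sox2-high libraries and Pcsk2 is highest in the Sox2-negative ones.

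Granins and peptide processing genes, which build the secretory granules of endocrine cells, were higher in Sox2-high cells in 14 of 20 members, beside 7.82% of all genes tested. The median log2 difference was -3.04. Between the negative groups the median was -1.68 in the same direction, against -0.02 over all genes tested. Chga, which encodes chromogranin A, stood at 546026, 742473 and 537317 in Sox2-high and at 3490.0, 7867 and 2034 in Lgr5-positive libraries (log2 difference -7.30, SE 0.49, adjusted p = 1.89e-05). Chgb stood at 1472248, 1801206 and 1379854 against 10505, 25237 and 2334 (log2 difference -7.50, SE 0.67, adjusted p = 9.99e-05) and took 5.68% to 8.20% of the reads of the Sox2-high libraries. Chga and Chgb averaged 30407 and 50229 in Sox2-negative and 9380.0 and 22776 in Lgr5-negative cells. The peptide precursor Vgf averaged 3052 ± 1688 against 38.7 ± 24.7 (log2 difference -6.31, SE 0.55, adjusted p = 7.88e-05). These 3 genes were those whose gap between contrasts passed (adjusted p = 0.0029 for Chga, 0.00823 for Chgb and 0.0185 for Vgf).

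For the processing enzymes the gap did not pass. Pcsk1, a prohormone convertase, averaged 30841 ± 17621 in Sox2-high and 3049 ± 2746 in Lgr5-positive cells (log2 difference -3.49, SE 0.70, adjusted p = 0.00863), with -1.43 between the negative groups and no pass for the gap (adjusted p = 0.646). Cpe, which trims the cleaved peptides, stood at 50337, 103054 and 80399 in Sox2-high, 9274, 28583 and 8526 in Lgr5-positive, 83408, 28288 and 90354 in Sox2-negative and 17118, 22751 and 16499 in Lgr5-negative libraries (log2 difference -2.51, SE 0.54, adjusted p = 0.0126). Its Sox2-negative and Sox2-high libraries overlapped. Pcsk2, another convertase, had a log2 difference of -0.48, SE 0.67, adjusted p = 0.767 (95% interval -1.95 to 0.99) and was highest in Sox2-negative cells (31304). Pam, which amidates peptides, had a log2 difference of -1.73, SE 0.61, adjusted p = 0.107. The call of Cpe ended without any 1 of Lgr5-positive 3 and Sox2-high 2 (adjusted p up to 0.0649).

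Granin promoters are shown because a cAMP response element, the letters TGACGTCA, is a known feature of granin genes. In the 250 bases before the start of transcription (RefSeq, GRCm38.p6), searched on both strands (the letters read alike on both), 3 of the 17 granin and processing genes with a window held it, against 1.55% of 32851 windows in all. They were Chgb, Pcsk1 and Scg2. A gene was counted if any of its windows held the letters, so the share of genes and the share of windows are unlike units. The sequences run 5′ to 3′ towards the start, with the element in capitals.
Chgb (chr2:132781392-132781641, plus strand): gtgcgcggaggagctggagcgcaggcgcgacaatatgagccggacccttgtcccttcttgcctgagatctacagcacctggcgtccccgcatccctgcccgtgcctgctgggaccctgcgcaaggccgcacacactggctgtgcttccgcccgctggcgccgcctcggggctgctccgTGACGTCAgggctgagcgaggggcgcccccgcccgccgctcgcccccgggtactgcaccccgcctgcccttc
Pcsk1 (chr13:75089607-75089856, plus strand): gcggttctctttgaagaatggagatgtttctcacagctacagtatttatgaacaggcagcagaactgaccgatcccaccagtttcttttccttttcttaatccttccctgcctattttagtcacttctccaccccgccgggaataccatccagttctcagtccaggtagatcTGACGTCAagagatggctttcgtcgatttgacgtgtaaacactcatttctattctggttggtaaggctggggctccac
Scg2 (chr1:79440027-79440276, minus strand): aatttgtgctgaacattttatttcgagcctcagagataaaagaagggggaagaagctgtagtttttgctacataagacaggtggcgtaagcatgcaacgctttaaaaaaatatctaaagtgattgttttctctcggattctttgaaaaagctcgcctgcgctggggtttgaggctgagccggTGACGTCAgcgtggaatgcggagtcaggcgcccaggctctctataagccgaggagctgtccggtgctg
The first base of the element lay 72, 78 and 68 bases before the start. The match did not go with a common difference: Chgb and Pcsk1 were higher in Sox2-high cells, while Scg2 stood at 337, 989.6 and 1538 in Sox2-high and at 594, 1543 and 313 in Lgr5-positive libraries (log2 difference -0.28, SE 0.68, adjusted p = 0.882, 95% interval -1.77 to 1.21).

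Genes of vesicle release and excitability were higher in Sox2-high cells in 28 of 38 tested members, beside 7.82% of all genes tested. Syt1, a calcium sensor of vesicle fusion, stood at 1036, 1101 and 769 in Sox2-high and at 0, 7.34 and 28.2 in Lgr5-positive libraries (log2 difference -7.26, SE 0.97, adjusted p = 0.00108). Its negative groups were close (-0.072), and the gap between contrasts was -7.19 (adjusted p = 0.0345). Snap25, a membrane fusion protein, averaged 6138 ± 2218 against 269.5 ± 224 (log2 difference -4.73, SE 0.59, adjusted p = 0.000773, with -1.24 between the negative groups). Sv2a, a vesicle protein, averaged 1899 ± 532 against 55.9 ± 54.5 (log2 difference -5.44, SE 0.56, adjusted p = 0.0003; gap -4.21, adjusted p = 0.0323). Trpa1, an irritant-gated channel found in enterochromaffin cells, averaged 490.3 ± 348 against 12.2 ± 5.26 (log2 difference -4.83, SE 0.73, adjusted p = 0.00203; gap -3.96, adjusted p = 0.122, or 0.00983 with the sort-day block). Rab3b, Syt13 and Vamp2 had differences of -3.38, -3.25 and -1.76 (adjusted p = 0.00712, 0.00694 and 0.00847), with -1.43, -1.57 and -0.89 between the negative groups. The exception was Adra2a, an adrenergic receptor, higher in Lgr5-positive cells at 1874, 2658 and 2362 against 268, 712 and 753 (log2 difference 2.12, SE 0.53, adjusted p = 0.0264, with -0.27 between the negative groups). Over the list the median was -3.003 between the positive and -1.36 between the negative groups. The gap passed in 2 genes, Syt1 and Sv2a, or in 10 with the sort-day block, 2 of them towards Lgr5-positive cells. Over all genes tested the gap passed in 0.94%, or in 5.15% with that block. The glia and neuron marker list followed the same pattern, with 6 of 10 tested members higher in Sox2-high cells, beside 7.82% of all genes tested. Its median was -3.80 between the positive and -1.50 between the negative groups, and the gap passed in 1 member (4 with the sort-day block). Among the 6 were Ret (averages of 1335 against 67.3) and Uchl1 (1208 against 81.5), which endocrine cells also express, while the glial gene S100b averaged 50.6 in Sox2-high cells and did not pass. The call of Adra2a ended without any 1 of Lgr5-positive 2 and 3 and Sox2-high 1 and 2 (adjusted p up to 0.0829).

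The Lgr5-positive cells were higher in genes of deep mucous glands. Of 17 tested mucous neck and deep gland genes, 5 were higher in Lgr5-positive and 0 in Sox2-high cells, beside 2.39% and 7.82% of all genes tested. With the replicate block the numbers were 12 and 0, beside 23.8% of all genes in either direction. The median was 1.70 between the positive and 0.0028 between the negative groups. Beside Muc6, A4gnt, the enzyme that caps its sugar chains, stood at 17266, 16646 and 17333 in Lgr5-positive and at 1933, 2638 and 4211 in Sox2-high libraries (log2 difference 2.62, SE 0.45, adjusted p = 0.00369, with 0.35 between the negative groups). Sox9, a transcription factor of gland-base progenitors, stood at 19188, 18052 and 10950.2 against 4116, 4018 and 5534 (log2 difference 1.79, SE 0.29, adjusted p = 0.00304), and it was the member whose gap between contrasts passed (2.05, adjusted p = 0.0447). Neither pair of groups overlapped. Aqp5, a water channel that marks antral gland-base cells in mice, averaged 38819 ± 13220.0 against 12666 ± 5338 (log2 difference 1.66, SE 0.42, adjusted p = 0.0266, or 0.0894 with the sort-day block, with -0.17 between the negative groups). Pla2g1b, a secreted phospholipase, stood at 49738, 8116 and 2217 against 2462, 246 and 144 with groups that overlapped (log2 difference 4.43, SE 1.12, adjusted p = 0.0274, with -2.39 between the negative groups). The secreted gland proteins Gkn3 (log2 difference 2.22, SE 0.78, adjusted p = 0.103, or 0.00969 with the replicate block) and Tff2 (log2 difference 1.85, SE 0.78, adjusted p = 0.177, or 0.0119 with the replicate block) passed with the block alone. The call of Aqp5 ended without any 1 of Lgr5-positive 1 and 3 and Sox2-high 2 and 3 (adjusted p up to 0.123), and that of Pla2g1b without any 1 of Lgr5-positive 1 and 2 and Sox2-high 2 and 3 (adjusted p up to 0.114).

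Zymogen genes were also higher in Lgr5-positive cells, in 4 of 15 tested members and in 0 the other way (7 and 0 with the replicate block). Over all genes tested the shares were 2.39% and 7.82%, or 23.8% in either direction with the replicate block. Pgc, which encodes progastricsin, stood at 6999020.0, 2117878 and 2838760.3 in Lgr5-positive and at 1117351, 358774 and 560941 in Sox2-high libraries (log2 difference 2.52, SE 0.64, adjusted p = 0.0272, with -0.86 between the negative groups) and took 9.92% to 18.6% of the reads of the Lgr5-positive libraries. Gif, which encodes gastric intrinsic factor, stood at 176799, 63796 and 73903 against 11520.0, 7805 and 8548 (log2 difference 3.36, SE 0.68, adjusted p = 0.00947; gap 4.70, adjusted p = 0.0483). Its lowest Lgr5-positive library lay above every other library. Cela1, an elastase, averaged 150903 ± 93629 against 37009 ± 21788 (log2 difference 2.02, SE 0.51, adjusted p = 0.0274, or 0.0502 with the sort-day block, with 0.52 between the negative groups), and Clps, which encodes colipase, 135142 ± 175972 against 10876 ± 13174 (log2 difference 3.45, SE 0.99, adjusted p = 0.048, or 0.0503 with the sort-day block, with -2.16 between the negative groups). The list's median was 1.08 between the positive and -0.91 between the negative groups, and the gap passed in Gif alone, or in 3 members with the sort-day block. Library Lgr5-positive 1 was the highest for Pgc and Gif. Xbp1, a factor of secretory cells, had a log2 difference of 0.47, SE 0.24, adjusted p = 0.271, or 0.032 with the replicate block. The calls of Pgc and Cela1 ended without any 1 of Lgr5-positive 1 and 3 and Sox2-high 2 and 3 (adjusted p up to 0.127), and that of Clps without any 1 library except Lgr5-positive 3, Sox2-high 1 and Sox2-negative 1 (adjusted p up to 0.176).

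Wnt pathway genes split, with a median of 0.97 between the positive and -0.14 between the negative groups. Of 26 tested members other than Lgr5 itself, 7 were higher in Lgr5-positive and 3 in Sox2-high cells, beside 2.39% and 7.82% of all genes tested. With the replicate block the numbers were 14 and 3, beside 23.8% of all genes in either direction. Smoc2, a matrix protein of intestinal Lgr5 cells in mice, stood at 1772, 2437 and 3041 in Lgr5-positive and at 339, 328 and 546 in Sox2-high libraries (log2 difference 2.58, SE 0.50, adjusted p = 0.00739, with 0.20 between the negative groups). The Wnt target Sp5 averaged 646 ± 275 against 119 ± 50.1 (log2 difference 2.43, SE 0.55, adjusted p = 0.0161, or 0.0621 with the sort-day block, with -0.55 between the negative groups), Tnfrsf19 226 ± 57.5 against 52.1 ± 22.9 (log2 difference 2.15, SE 0.54, adjusted p = 0.0259, with -0.56 between the negative groups), and the pathway inhibitor Nkd1 1073 ± 410.2 against 293 ± 72.4 (log2 difference 1.82, SE 0.47, adjusted p = 0.0295, or 0.108 with the sort-day block, with -1.22 between the negative groups). The ion cotransporter Slc12a2 (log2 difference 2.14, SE 0.57, adjusted p = 0.0352, with 0.21 between the negative groups) and the adhesion receptor Cd44 (log2 difference 1.59, SE 0.39, adjusted p = 0.0238, or 0.0768 with the sort-day block, with -0.0039 between the negative groups) were also higher in Lgr5-positive cells, as was Znrf3, a ligase that removes Wnt receptors (log2 difference 1.12, SE 0.30, adjusted p = 0.0333, or 0.0689 with the sort-day block, with -0.20 between the negative groups). Against this direction, Wif1, a secreted protein that binds Wnt ligands, stood at 2989.7, 6329.8 and 4285 in Sox2-high and at 54.8, 52.7 and 12.9 in Lgr5-positive libraries (log2 difference -6.96, SE 0.63, adjusted p = 0.000105). It averaged 167 and 106 in the negative cells, and its gap was -6.47 (adjusted p = 0.00564), the only one of the list to pass with limma. Bambi, a decoy receptor, was higher in Sox2-high cells (log2 difference -1.52, SE 0.35, adjusted p = 0.0175, with -0.57 between the negative groups), and Lgr6, a relative of Lgr5, averaged 14.5 against 0.945, close to the floor (log2 difference -3.08, SE 0.78, adjusted p = 0.0261, or 0.0698 with the sort-day block, with 1.67 between the negative groups). With the sort-day block the gap passed in 8 members, 6 of them towards Lgr5-positive cells. The call of Lgr6 ended without any 1 of Lgr5-positive 2 and 3 (adjusted p up to 0.0842), that of Sp5 without any 1 of Lgr5-positive 1 and Sox2-high 2 (adjusted p up to 0.0784), and that of Bambi without any 1 of Lgr5-positive 3 and Sox2-high 2 and 3 (adjusted p up to 0.0854). The call of Cd44 ended without any 1 of Lgr5-positive 1 and 3 and Sox2-high 2 and 3 (adjusted p up to 0.106), that of Tnfrsf19 without any 1 of Lgr5-positive 2 and 3 and Sox2-high 1 and 3 (adjusted p up to 0.101), and that of Nkd1 without any 1 of Lgr5-positive 1 and 2 and Sox2-high 2 and 3 (adjusted p up to 0.126). The call of Znrf3 ended without any 1 library except Lgr5-positive 3, Lgr5-negative 1 and Sox2-negative 1, 2 and 3 (adjusted p up to 0.114), and that of Slc12a2 without any 1 library except Lgr5-negative 1 and 3 and Sox2-negative 1 and 2 (adjusted p up to 0.101).

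The promoters of Wnt targets are shown because TCF factors bind near the letters CTTTGAT. Of 20 Wnt list members with a window, 2 held these letters on either strand, Sp5 and Tnfrsf19 (at the second of its starts, the only one shown), against 3.2% of all windows. Here too the first number counts genes and the share counts windows. The sequences are given as above, with the match in capitals.
Sp5 (chr2:70474673-70474922, plus strand): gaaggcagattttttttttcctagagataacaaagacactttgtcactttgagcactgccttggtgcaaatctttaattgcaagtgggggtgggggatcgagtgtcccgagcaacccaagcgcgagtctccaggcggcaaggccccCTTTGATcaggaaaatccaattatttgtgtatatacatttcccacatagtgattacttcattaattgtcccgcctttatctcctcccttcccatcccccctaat
Tnfrsf19 (chr14:61037988-61038237, minus strand): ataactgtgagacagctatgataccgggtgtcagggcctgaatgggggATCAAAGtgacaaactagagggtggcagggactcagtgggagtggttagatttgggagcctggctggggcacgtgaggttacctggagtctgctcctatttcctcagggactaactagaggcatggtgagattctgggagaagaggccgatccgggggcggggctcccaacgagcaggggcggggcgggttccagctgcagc
The first base of the match lay 104 bases before the start of Sp5 and 202 bases before that of Tnfrsf19. Each gene was higher in Lgr5-positive cells, as were 5 members in which these letters were not found or that have no window.

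Parietal cell genes were higher in Lgr5-positive than in Sox2-high cells in 5 of 17 tested members (12 with the replicate block, 1 the other way). Over all genes tested 2.39% were higher in Lgr5-positive cells, and 23.8% passed in either direction with the replicate block. Atp4a, a subunit of the proton pump that acidifies the stomach, stood at 9937, 48747 and 18186 in Lgr5-positive, 1158, 244 and 3683 in Sox2-high, 221, 1297 and 1299 in Lgr5-negative and 10123, 18338 and 5917 in Sox2-negative libraries (log2 difference 4.35, SE 0.98, adjusted p = 0.0163; gap 8.19, adjusted p = 0.017). Its partner Atp4b averaged 16328, 1598, 433 and 10027 in the same order (log2 difference 3.72, SE 0.87, adjusted p = 0.0194; gap 7.93, adjusted p = 0.0103). The potassium channel gene Kcnj16 stood at 109.5, 261 and 65.4 against 1.09, 0 and 4.32 (log2 difference 5.80, SE 0.83, adjusted p = 0.00151; gap 9.68, adjusted p = 0.00286). Kcne2, a channel subunit of the acid-secreting membrane, averaged 430.2 against 35.9 (log2 difference 4.76, SE 1.11, adjusted p = 0.0193, or 0.0736 with the sort-day block, with -2.69 between the negative groups) and the nuclear receptor Esrrg 561 against 89.1 (log2 difference 2.60, SE 0.74, adjusted p = 0.0472, or 0.0765 with the sort-day block, with -3.18 between the negative groups). The median of the list was 1.42 between the positive groups and -2.64 between the negative groups. The gap passed in 5 members (7 with the sort-day block), beside 0.94% (5.15%) of all genes tested. Atp4a and Kcnj16 were low in Sox2-high and Lgr5-negative libraries and high in the other groups. The calls of Atp4a and Kcne2 ended without any 1 of Lgr5-positive 2 and Sox2-high 2 (adjusted p up to 0.0697), that of Atp4b without any 1 of Lgr5-positive 1 and 2 and Sox2-high 2 (adjusted p up to 0.0698), and that of Esrrg without any 1 library except Lgr5-positive 1, Sox2-high 3 and Lgr5-negative 1 (adjusted p up to 0.148).

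Tuft cell genes, which mark the chemosensory cells of the epithelium, were higher in Lgr5-positive cells in 10 of 24 members (16 with the replicate block) and in Sox2-high cells in 0. Over all genes tested the shares were 2.39% and 7.82%, or 23.8% in either direction with the replicate block. The median of the tuft list was 2.81. Gfi1b, a transcription factor of tuft cells, stood at 138, 258 and 73.4 in Lgr5-positive and at 0, 0 and 24.7 in Sox2-high libraries (log2 difference 5.56, SE 1.07, adjusted p = 0.00716, with -1.12 between the negative groups). Dclk1, a kinase that marks tuft cells, stood at 2906, 6579.6 and 2351 against 88.6, 14.3 and 882 (log2 difference 5.06, SE 1.16, adjusted p = 0.0176, with -1.15 between the negative groups). The taste channel Trpm5 averaged 3261 against 516 (log2 difference 3.39, SE 0.96, adjusted p = 0.0445, or 0.0677 with the sort-day block, with -1.52 between the negative groups), and the transcription factor Spib 923 against 124 (log2 difference 3.58, SE 0.86, adjusted p = 0.0217, with -1.78 between the negative groups). The negative cells held these transcripts too: Gfi1b averaged 120.2 in Lgr5-negative and 258 in Sox2-negative cells, and Dclk1 2798 and 5829. The Sox2-high libraries were the low ones. Ptprc, the leukocyte gene CD45, went with the tuft list, at 136, 256 and 58.1 in Lgr5-positive and 0, 0 and 30.9 in Sox2-high libraries (log2 difference 5.33, SE 1.15, adjusted p = 0.013, with -1.83 between the negative groups), while 0 of the other 13 tested immune markers passed in that direction and Cd74 averaged 115 and 102. Lyz2, another immune marker, was higher in Sox2-high cells (log2 difference -4.05, adjusted p = 0.0282, or 0.0562 with the sort-day block). That call ended without any 1 of Lgr5-positive 2 and 3 and Sox2-high 1, 2 and 3 (adjusted p up to 0.0916). The gap between contrasts passed in 0 of 24 tuft genes with limma and in 16 with the sort-day block, beside 0.94% and 5.15% of all genes tested. Its unadjusted p was under 0.05 for 19, and edgeR called 0, DESeq2 13 and voom 9. The call of Ptprc ended without Sox2-high 2 (adjusted p = 0.0641), that of Dclk1 without any 1 of Lgr5-positive 2 and Sox2-high 2 (adjusted p up to 0.0585), and that of Spib without any 1 of Lgr5-positive 1 and 2 (adjusted p up to 0.0649). The call of Trpm5 ended without any 1 library except Sox2-high 3, Lgr5-negative 1 and Sox2-negative 1 (adjusted p up to 0.129).

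**Figure D4:**
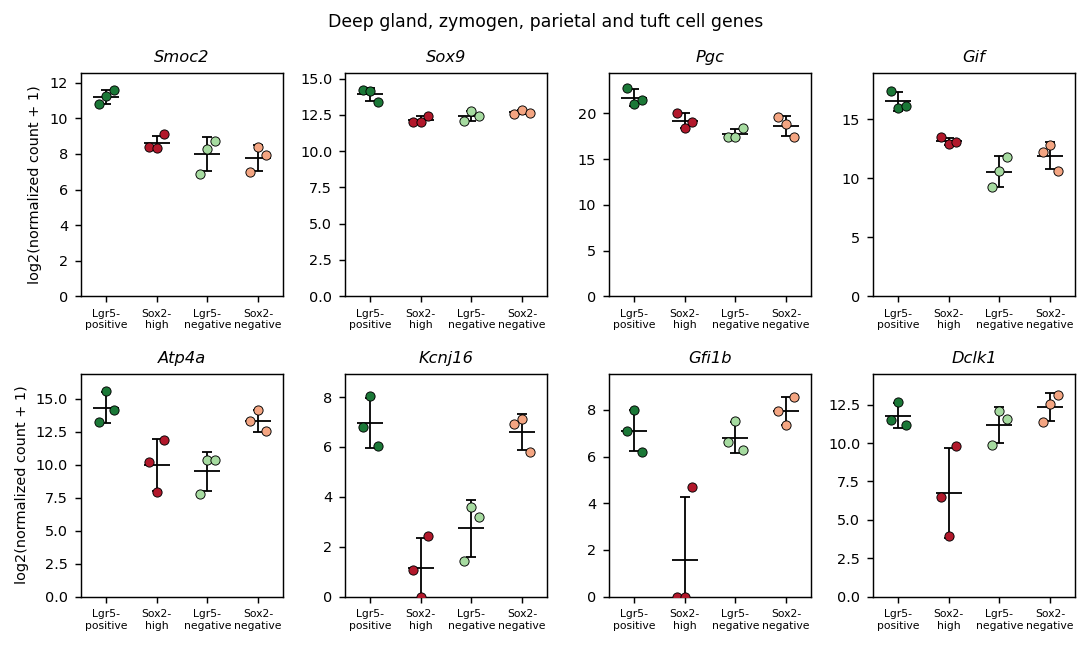
log2(normalized count + 1) of 8 genes in the 12 libraries (points, sort days 1 to 3), with group mean and SD (n = 3). Smoc2, Sox9, Pgc and Gif are highest in the Lgr5-positive libraries, Atp4a and Kcnj16 are low in Sox2-high and Lgr5-negative libraries, and Gfi1b and Dclk1 are low in the Sox2-high libraries alone.

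Of 25 tested Sox and foregut transcription factors 4 passed, beside 10.2% of all genes tested. Sox9 and Foxa3 (log2 difference 0.98, SE 0.27, adjusted p = 0.0403, with 0.28 between the negative groups) were higher in Lgr5-positive cells and Sox12 (log2 difference -2.06, SE 0.36, adjusted p = 0.00404, with -0.74 between the negative groups) and Sox4 (log2 difference -1.30, SE 0.32, adjusted p = 0.0245, or 0.0574 with the sort-day block, with -0.97 between the negative groups) in Sox2-high cells. With the replicate block 9 passed, 6 of them higher in Lgr5-positive cells, beside 23.8% of all genes in either direction. Klf5 had a log2 difference of 0.50, SE 0.23, adjusted p = 0.229 (95% interval -0.0088 to 1.01) and Elf3 a log2 difference of 0.26, SE 0.25, adjusted p = 0.62 (95% interval -0.28 to 0.81). Of 17 tested genes proposed to mark isthmus or reserve stem cells, 3 were higher in Lgr5-positive and 1 in Sox2-high cells, beside 2.39% and 7.82% of all genes tested. Runx1, a transcription factor whose enhancer marks corpus stem cells in mice, was higher in Lgr5-positive cells, at 2056, 1947 and 1626 against 539.5, 513 and 793 (log2 difference 1.63, SE 0.27, adjusted p = 0.00306, with -0.051 between the negative groups). Cxcr4, a chemokine receptor, averaged 68.2 against 12.5 (log2 difference 2.27, SE 0.57, adjusted p = 0.0266, or 0.052 with the sort-day block, with 0.93 between the negative groups), and Msi1, an RNA-binding protein, 12.6 against 98.9 (log2 difference -3.27, SE 0.81, adjusted p = 0.0256, with -1.08 between the negative groups). Tnfrsf19, given above, is the other member that passed. The call of Sox4 ended without any 1 of Lgr5-positive 1 and 3 and Sox2-high 2 (adjusted p up to 0.115), that of Cxcr4 without any 1 of Lgr5-positive 1 and 3 and Sox2-high 1 and 2 (adjusted p up to 0.0935), and that of Msi1 without any 1 of Lgr5-positive 2 and 3 and Sox2-high 1, 2 and 3 (adjusted p up to 0.102). The call of Foxa3 ended without any 1 library except Lgr5-positive 2, Lgr5-negative 2 and Sox2-negative 1 (adjusted p up to 0.156).

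Of 23 tested Notch pathway genes, 5 were higher in Sox2-high cells and 1 in Lgr5-positive cells, beside 7.82% and 2.39% of all genes tested. With the replicate block the numbers were 7 and 3, beside 23.8% of all genes in either direction. Mfng, which adds sugars to Notch receptors, averaged 1079.7 ± 184 against 51.1 ± 22.6 (log2 difference -4.45, SE 0.48, adjusted p = 0.000345; gap -3.67, adjusted p = 0.0273). Dner, a Notch ligand of neural cells, averaged 1864 ± 949.6 against 174 ± 178 (log2 difference -3.75, SE 0.71, adjusted p = 0.00649, with -1.32 between the negative groups). The Notch target Hes5 stood at 51.4, 45.0 and 14.2 against 0, 0 and 0 and Dtx1, a ligase of the pathway, averaged 85.8 against 2.89 (adjusted p = 0.00221 and 0.0083). The receptor Notch2 was higher in Lgr5-positive cells (log2 difference 1.77, SE 0.47, adjusted p = 0.0325, or 0.081 with the sort-day block, with 0.16 between the negative groups). The Notch target Hes1 (log2 difference 1.12, SE 0.37, adjusted p = 0.0828, or 0.00635 with the replicate block) and its relative Hes6 (log2 difference -0.66, SE 0.32, adjusted p = 0.245, or 0.0169 with the replicate block) passed with the block alone. The call of Notch2 ended without any 1 library except Lgr5-negative 1 and 3 and Sox2-negative 1 and 2 (adjusted p up to 0.0878).

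Among 24 tested keratin, claudin and adhesion genes, 4 were higher in Sox2-high and 0 in Lgr5-positive cells, beside 7.82% and 2.39% of all genes tested. Krt7, a keratin of simple epithelia, stood at 21971, 22611 and 19367 against 3614, 4252 and 8834 (log2 difference -2.05, SE 0.32, adjusted p = 0.00256; gap -2.31, adjusted p = 0.0405), and the tight junction gene Cldn3 averaged 5230.5 ± 1269 against 637 ± 273 (log2 difference -3.12, SE 0.52, adjusted p = 0.00334, with -1.69 between the negative groups). Cldn4 (log2 difference -3.15, SE 0.86, adjusted p = 0.038, with -1.52 between the negative groups) and Cldn7 (log2 difference -1.25, SE 0.36, adjusted p = 0.049, with -0.87 between the negative groups) passed by a small margin. The keratins Krt8 (log2 difference 0.45, SE 0.37, adjusted p = 0.556, 95% interval -0.36 to 1.25) and Krt19 (log2 difference 0.43, SE 0.50, adjusted p = 0.711, 95% interval -0.67 to 1.53) did not pass. Of 14 pit cell genes, which belong to the surface mucous cells, 0 passed with limma, or 2 with the replicate block, beside 10.2% and 23.8% of all genes. An unadjusted p under 0.05 was found for 2, and edgeR called 1, DESeq2 3 and voom 2. Of 17 intestine genes, 1 was higher in Lgr5-positive and 1 in Sox2-high cells, beside 2.39% and 7.82% of all genes tested. The apolipoprotein Apoa1 was higher in Lgr5-positive cells at 3999.5 against 631 (log2 difference 3.21, SE 0.85, adjusted p = 0.0326, or 0.0507 with the sort-day block; gap 7.05, adjusted p = 0.017) and the peptide gene Guca2b in Sox2-high cells at 411 against 22.4 (log2 difference -4.01, SE 0.95, adjusted p = 0.0202, with -1.26 between the negative groups). The call of Guca2b ended without any 1 of Lgr5-positive 2 and 3 and Sox2-high 1 (adjusted p up to 0.0782), that of Apoa1 without any 1 of Lgr5-positive 1 and 2, Sox2-high 2 and 3 and Lgr5-negative 2 (adjusted p up to 0.116), and those of Cldn7 and Cldn4 without any 1 library except Lgr5-positive 1 and Sox2-negative 1 and 2 (adjusted p up to 0.153).

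Cell cycle genes gave no call. Of 30 S phase and 26 G2/M genes, 0 passed in either direction with limma, beside 10.2% of all genes tested. With the replicate block 2 and 1 passed, all higher in Lgr5-positive cells, beside 23.8% of all genes in either direction. An unadjusted p under 0.05 was found for 1 gene of each list. edgeR called 0 of both, DESeq2 1 and 0, and voom 2 and 3. The medians were 0.32 and 0.15 between the positive and 0.68 and 0.55 between the negative groups. Mcm6, a replication helicase subunit, had a log2 difference of 0.53, SE 0.61, adjusted p = 0.709 (95% interval -0.82 to 1.87), and Cdc20, a mitotic regulator, a log2 difference of 0.11, SE 0.32, adjusted p = 0.897 (95% interval -0.58 to 0.81). Of 24 oxidative phosphorylation, 25 ribosome biogenesis and 21 immediate early genes, 0 passed in each list, beside 10.2% of all genes tested. An unadjusted p under 0.05 was found for 3, 0 and 6, edgeR called 0 of each, DESeq2 3, 0 and 3, and voom 8, 0 and 3. With the replicate block 10 oxidative phosphorylation genes and 1 immediate early gene were higher in Lgr5-positive cells and 4 immediate early genes in Sox2-high cells. These counts stand beside 23.8% of all genes in either direction with that block. Of 24 endoplasmic reticulum genes, 1 passed with limma, beside 10.2% of all genes tested, 7 with DESeq2 and 6 with voom. With the replicate block 7 were higher in Lgr5-positive and 1 in Sox2-high cells, beside 23.8% of all genes in either direction. The call with limma was 1 gene. The call was Atf6, a stress sensor, which stood at 6794, 14158 and 14590.0 in Sox2-high and at 945, 1527 and 1202 in Lgr5-positive libraries (log2 difference -3.22, SE 0.38, adjusted p = 0.000598; gap -3.29, adjusted p = 0.0136), and averaged 1215 and 1135 in the negative groups.

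**Figure D5:**
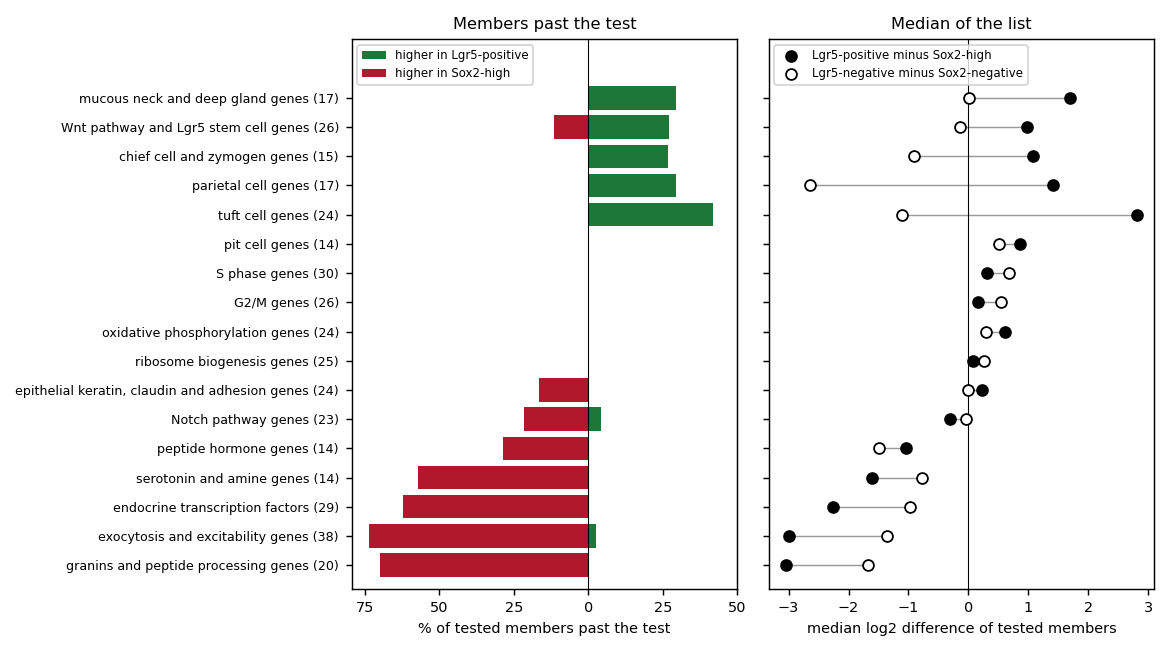
Left, share of the tested members of 17 gene lists (number tested in brackets) that passed the test, higher in Lgr5-positive (green, to the right) or in Sox2-high cells (red, to the left). Right, median log2 difference of each list between the positive groups (filled) and between the negative groups (open); the 5 endocrine lists lie left of 0 in both. The parietal, tuft and zymogen lists have opposite signs, as do the Wnt (0.97 and -0.14) and keratin lists (0.23 and -0.0028).

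The largest differences were also listed. Ranked by size among genes that passed, did not overlap and differed by at least 1 log2 unit more than the negative groups, the first 14 higher in Sox2-high cells were Lmx1a, Cdh22, Anks1b, Jhy, Nkx6-1, Penk, Ica1l, Enox1, Sbpl, Kcnj1, Vwa3a, Slc35d3, Prss12 and Chgb, with log2 differences from -8.85 to -7.50. Of these 14 the gap passed with limma in 12, Enox1 and Slc35d3 being the others, and in all 14 with the sort-day block. The ranking used the same differences as the gap, so these passes are no separate support. Cdh22, a cadherin, stood at 817, 2915 and 3189 against 6.08, 32.7 and 0 in Lgr5-positive libraries. The scaffold gene Anks1b stood at 489, 916 and 829 against 0, 11.3 and 0, and the protease gene Prss12 at 958, 1975 and 1459.8 against 0, 17.4 and 24.2. Both groups were apart in each. Enox1 and the potassium channel gene Kcnj1 had no read in the Lgr5-positive libraries and were at least 73.8-fold and at least 70.5-fold higher in Sox2-high cells, against a floor of 3 reads per library. With any 1 Sox2-high library left out, Kcnj1 and Vwa3a no longer met the filter on low values and were not tested.

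The first 14 higher in Lgr5-positive cells were Pcdh20, Adgrf3, Try4, Kcnj16, Ccdc129, Dgki, Gfi1b, Foxe1, Angptl1, Ptprc, Cd300lf, Dclk1, Sdr9c7 and Slc2a4, with log2 differences from 4.99 to 6.16. Here too the ranking used the differences that make the gap, so its passes are no separate support. In 6 of these 14 the gap passed with limma (Adgrf3, Kcnj16, Dgki, Foxe1, Angptl1 and Sdr9c7), and in all 14 with the sort-day block. That block ended the call of Slc2a4 between the positive groups (adjusted p = 0.064). Foxe1, a forkhead transcription factor, stood at 95.3, 114 and 67.0 against 0, 0 and 8.64 in Sox2-high libraries. Angptl1, an angiopoietin-like secreted protein, stood at 132, 51.4 and 37.9 against 0, 0 and 3.09, and the trypsin gene Try4 at 659, 53.4 and 142 against 0, 2.73 and 6.79. Adgrf3, Dgki and Sdr9c7 had no read in the Sox2-high libraries and were at least 27.0-fold, 24.3-fold and 13.5-fold higher in Lgr5-positive cells against the same floor. Over these 14 genes the Sox2-negative averages lay between 11.9 for Slc2a4 and 5829 for Dclk1, so they were detected in negative cells of the Sox2-Tomato line as well. In all 14 the difference between the negative groups had the opposite sign, from -3.88 to -0.76 on the log2 scale. Their gaps thus also hold the higher level in Sox2-negative than in Lgr5-negative cells. The calls of Ccdc129 and Ptprc ended without Sox2-high 2 (adjusted p up to 0.0641), those of Pcdh20, Dclk1 and Slc2a4 without any 1 of Lgr5-positive 2 and Sox2-high 2 (adjusted p up to 0.0822), and that of Try4 without any 1 of Lgr5-positive 1 and 3 and Sox2-high 1 and 2 (adjusted p up to 0.0827). The call of Cd300lf ended without any 1 of Lgr5-positive 1 and 2 and Sox2-high 1 and 2 (adjusted p up to 0.0872).

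Markers of cells other than epithelium were read in all 4 groups. The summed level of the 19 immune markers with values, tested or not, was 163.8 to 539 in Lgr5-positive, 303 to 398 in Sox2-high, 189 to 621 in Lgr5-negative and 1759 to 24894 in Sox2-negative libraries. Fibroblast and smooth muscle markers, which did not overlap between positive and negative libraries, had sums of 637 to 1624 in Lgr5-positive and 442 to 791 in Sox2-high against 73.9 to 284 in Lgr5-negative and 92.4 to 182 in Sox2-negative libraries. Endothelium markers summed to 1039 to 1877, 2021 to 3314, 827 to 1257 and 1402 to 2771 in the same order. Of 5 tested fibroblast and smooth muscle markers, 2 were higher in Sox2-high and 0 in Lgr5-positive cells, or 2 and 1 with the replicate block. The median log2 difference of that list was 0.025. Col1a2, a collagen, stood at 173, 358 and 246 in Sox2-high and 22.3, 0.668 and 0 in Lgr5-positive libraries (log2 difference -6.20, SE 1.23, adjusted p = 0.00803, with 1.21 between the negative groups), and Vim, a filament protein, at 165, 97.6 and 147 against 0, 8.01 and 0 (log2 difference -6.01, SE 0.91, adjusted p = 0.00217, with -0.68 between the negative groups). Their part in the results was not tested. Endothelial Tek was higher in Lgr5-positive cells (log2 difference 3.69, SE 0.90, adjusted p = 0.0237, with -0.96 between the negative groups) and Vwf (log2 difference -3.27, SE 0.63, adjusted p = 0.00713, with 0.55 between the negative groups) and Prox1 (log2 difference -2.61, SE 0.49, adjusted p = 0.00656, with -1.42 between the negative groups), the last also an endocrine factor, in Sox2-high cells. The erythrocyte and squamous lists gave 0 calls with limma and edgeR, with sums of at most 170.3 and 617. Their unadjusted p was under 0.05 for 0 and 1 genes, and DESeq2 and voom each called 0 and 1. Y-linked genes were read in all 12 libraries, and 0 of 4 passed with limma, edgeR, DESeq2 or voom, or had an unadjusted p under 0.05. The call of Tek ended without any 1 of Lgr5-positive 2 and 3 and Sox2-high 1 and 2 (adjusted p up to 0.0995).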

How the data were processed

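RNA was measured by RNA-seq in cells sorted from the mouse antrum, with a low-input kit that amplifies cDNA, per the labels' protocols. The tools STAR, HTSeq, DESeq2 and edgeR and the build mm9 are named in the submitters' processing notes, with no versions and no roles. Whether counting used strand is not given in the sources used here, so reads of antisense or overlapping pairs may be shared, and near-identical copies such as the trypsin genes are uncertain. The values the authors deposited are a signal, in which the count of a gene was divided by the size factor of its library. Numbers of sorted cells and sort days come from a sheet the authors deposited beside them, and its replicate numbers equal those of the labels in all 30 libraries. Sorted cell numbers are counts the authors deposited.

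Of 26400 features, 433 without a gene name held 0.0854% to 0.482% of reads and 25 with date names 0.0491% to 0.106%. They were left out, which left 25942 genes. Each value was a whole multiple of what 1 read is worth, within 0.01 of a read, for at least 99.99% of values per library, so reads could be recovered. edgeR's quasi-likelihood test on those reads called 1191 genes between the positive groups. No 2 libraries of a group agreed within sampling noise. The smallest chi-square per degree of freedom between 2 of them was 48.7. The libraries held 18602964 to 34372254 reads in named genes. Amplified reads without molecular identifiers are not independent molecules, so the floor of 3 reads covers counting error only.

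limma 3.58.1 in R 4.3.3 (empirical Bayes with trend and robust options) was fitted to log2(normalized count + 1) of the 12 libraries with 4 group means, for 15642 genes with at least 10 normalized counts in at least 3 libraries, with Benjamini-Hochberg adjustment over all of them. A fold change on this scale understates the change of low genes. Alternatives used edgeR 4.0.16, DESeq2 1.42.0, voom, other scalings, pseudocounts and filters, blocks and left-out libraries. The script was tested on simulated data.

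Libraries of 1 line with the same number share a sort day, per the deposited sheet, and deviated from their group means together, with correlations across genes of 0.602, 0.572 and 0.508 in the Lgr5 line and 0.474, 0.123 and 0.315 in the Sox2 line. Lgr5-positive and Sox2-high libraries share a number but no day. Their correlations were 0.569, 0.451 and 0.170, so the number was also fitted as a replicate block, an alternative chosen after seeing the data, as was leaving out day 1.

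The members, the 29 gene lists and the tests were chosen with earlier results of these data known. Named genes are the 4 markers, the 14 largest differences in each direction among genes that passed, did not overlap and exceeded the negative difference by at least 1 log2 unit, the 3 genes with the highest mean in each positive group, and per list up to 4 that passed and 2 that did not, by mean level. Further list members were named after their values were seen. Promoter windows come from RefSeq on GRCm38.p6, another build than that of the files, and were matched by gene symbol only.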

Additional observations from a re-analysis of the deposited data

How the results depend on the processing

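No called value changed sign under any alternative run. Between the positive groups 1597 genes passed, and 1089 to 2003 did so with the sort day as a random block, all 15 antrum libraries, edgeR, CPM scaling, a pseudocount of 10, no filter or a filter at 100. The count was 753 in a fit of the 6 libraries alone, 2477 with DESeq2, 3001 with voom and 3026 without day 1, and 728 to 1683 with each library left out in turn. Of the 1597 genes, 659 passed with every library left out. With 1 library of a group left out, the other 2 stand for its spread. Between the negative groups, where 0 passed, DESeq2 called 322 and voom 804, and leaving out a library gave 0 to 1. For the gap between contrasts, 147 in the fit as reported, the count was 255 with 15 libraries, 97 with edgeR and TMM factors, 92 with RLE factors, 493 with DESeq2, 265 with CPM scaling, 258 with a pseudocount of 10, 90 with a filter at 100, 381 with voom, 92 without day 1 and 68 to 175 with a library left out. The cause of these shifts was not tested. The median of all genes between the positive groups was -0.02 here and 0.10 with edgeR's TMM factors.

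With the replicate number as a replicate block the counts were 3727, 21 and 422. For the gap, the sort day as a random replicate block gave 805 and as a fixed one 429. The numbers correlated above 0.1 in every pair, but Lgr5-positive 3 correlated better with Sox2-high 2 (0.29) than with Sox2-high 3 (0.170). The share of calls higher in Lgr5-positive cells was 23.4%, against 39.7% with the number as a block and 37.6% without day 1. Beside the genes described, the blocked p is given where it changes the call between the positive groups. Over all named genes and alternatives, a difference between the positive groups passed newly in 95 cases, no longer passed in 291 and was on the same side of the threshold in 3598. For the gap these were 213, 137 and 3636.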
